A study of Mus musculus with 40 samples.

Results

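The very wide SMARCA5 domains are the peaks of the SMARCA5 consensus list that span 8000 bp or more on chromosomes 1 to 19 and X. The rule found 1085 of them among the 37054 SMARCA5 peaks of those chromosomes (2.93%), and among 37071 peaks in the whole list. Members were chosen by the measured width of the peak alone, so their widths and their SMARCA5 values are given as a description. The positions of CTCF, PU.1 and C/EBPb come from other immunoprecipitations and were not used to choose them.

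The maps come from primary bone marrow-derived macrophages of mice. Wild-type cells carried Csf1r-Cre, and knockout cells carried Csf1r-Cre with loxP-flanked (Smarca5lox/lox) alleles. Both were differentiated over 7 days with 4-hydroxytamoxifen given daily, so the wild-type cells share the Cre and the drug. Csf1r is active across the macrophage lineage. CTCF, PU.1 and C/EBPb were immunoprecipitated from untreated cells, in 2 libraries per genotype. SMARCA5 was immunoprecipitated after digestion with micrococcal nuclease, in 2 libraries for each genotype, untreated or after 2 h of lipopolysaccharide (LPS, 10 ng/ml). Whether paired libraries came from separate mice is not given by the labels. Each protein is represented by 1 consensus list on mm39, and no value belongs to a library, a genotype or a stimulus. A domain may therefore have been called in any of the SMARCA5 libraries, those labelled Smarca5-/- included, and may differ between untreated and LPS-treated cells.

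SMARCA5 (also called SNF2H) is the ATPase of the ISWI chromatin remodelling complexes, which slide nucleosomes and space them evenly. It is known for ordering the nucleosomes beside CTCF, which binds DNA through zinc fingers at insulators and loop anchors. PU.1 is the ETS-family factor that sets up the macrophage regulatory landscape, and C/EBPb is a leucine-zipper factor that often binds close to it. A broad peak is a stretch in which signal stays above background without a single summit. A summit is the point of highest signal within a narrow peak of a DNA-binding factor.

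The domains had a median width of 9542 bp (quartiles 8651 and 11347 bp) and ran up to 38240 bp. Their number fell quickly with width, to 452 at 10000 bp or more, 89 at 15000 bp or more and 6 at 30000 bp or more. Together they covered 11.6 Mb, or 10.4% of all sequence inside SMARCA5 peaks of these chromosomes. The authors' fold enrichment over local background was low and even, with a median of 2.00 and a range from 1.74 to 2.59. Peaks under 2000 bp had a median of 2.11 and reached 3.54. The median -log10 q was 3.97 in the domains and 3.58 in peaks under 2000 bp. The quartile ranges of both measures overlapped between these classes. The 3 domains nearest the width limit spanned 8002, 8006 and 8007 bp and held 5, 6 and 5 factor summits. The 3 peaks just below it, of at least 7993 bp, held 1, 3 and 1.

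Most domains held the macrophage factors, and fewer than 1 in 3 held CTCF. A PU.1 summit lay in 985 of the 1085 domains, or 90.8% (95% Wilson interval 88.9 to 92.4), against 71.3% of all SMARCA5 peaks on these chromosomes. A C/EBPb summit lay in 806, or 74.3% (71.6 to 76.8), against 43.6%. CTCF was held by 337, or 31.1% (28.4 to 33.9), against 24.7%. In peaks of 4000 bp to just under 8000 bp (here 4000 to 8000 bp; other width classes likewise leave out their upper limit) a PU.1 summit lay in 88.9% (88.2 to 89.6), with an interval overlapping that of the domains. C/EBPb was in 63.3% of them (62.2 to 64.3) and CTCF in 25.3% (24.4 to 26.3), both below the domains. The intervals here cover counting error only, since peaks are not replicates and no spread between animals or cultures can be had from these lists. No test between libraries was possible for any comparison below. A wider stretch also meets more sites simply by its length.

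Domains often held several summits of one factor. For PU.1, 631 domains held 2 or more (58.2%, 55.2 to 61.1), against 14.9% of all SMARCA5 peaks, and the most in 1 domain was 6. For C/EBPb, 314 domains did (28.9%, 26.3 to 31.7), against 4.74%, with at most 4. For CTCF it was 48 domains (4.42%, 3.35 to 5.82), against 1.56%, with at most 4. At 4000 to 8000 bp the shares were nearer, though still lower. They were 35.3% for PU.1 (34.3 to 36.4), 11.7% for C/EBPb (11.0 to 12.4) and 2.72% for CTCF (2.38 to 3.10). Here too a wider stretch meets more sites by its length. Over the 3 factors a domain held 3.26 ± 1.80 summits (mean ± SD over the 1085 domains), from 0 to 11. SMARCA5 peaks of 4000 to 8000 bp held 2.34 ± 1.25 (SD over 7771 peaks). The distributions overlapped widely, and 212 domains held 2 summits, the most frequent number in the narrower class.

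**Figure D1:**
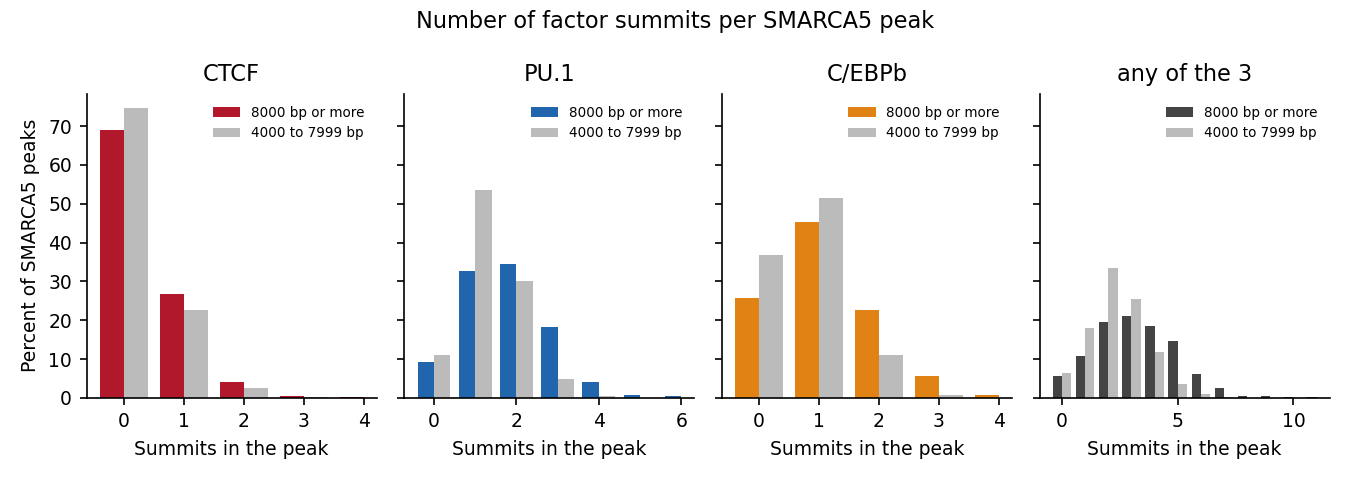
Percent of SMARCA5 peaks (y axis) by the number of summits they hold (x axis) for CTCF, PU.1, C/EBPb and all 3 together, in domains of 8000 bp or more (coloured bars, 1085 peaks) and in peaks of 4000 to 8000 bp (grey bars, 7771 peaks). For PU.1 the most frequent number was 2 in the domains (34.6%) and 1 in the narrower peaks (53.5%).

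The factors came in a limited set of combinations. PU.1 with C/EBPb and no CTCF was the most frequent, in 528 domains (48.7%, 45.7 to 51.6). It was also the most frequent over all SMARCA5 peaks (31.0%) and at 4000 to 8000 bp (45.6%, 44.5 to 46.7, an interval that overlaps that of the domains). All 3 factors were found in 253 (23.3%, 20.9 to 25.9), against 8.01% of all SMARCA5 peaks and 14.8% (14.1 to 15.6) at 4000 to 8000 bp. PU.1 alone was found in 135 domains (12.4%), against 24.6% of all SMARCA5 peaks, and PU.1 with CTCF in 69 (6.36%), against 7.67%. C/EBPb alone was found in 25 (2.30%), against 3.51%, and CTCF alone in 15 (1.38%), against 7.98%. At 4000 to 8000 bp C/EBPb alone was found in 2.17%, CTCF alone in 1.97% and PU.1 with CTCF in 7.86%. The intervals of these shares overlap those of the domains. PU.1 alone was found in 20.6% there, with an interval above that of the domains. CTCF met C/EBPb without PU.1 in 0 domains. This pair was rare in general, in 399 of all SMARCA5 peaks (1.08%) and in 51 peaks of 4000 to 8000 bp (0.656%). A count of 0 of 1085 has a Wilson upper bound of 0.353%. PU.1 was held by 95.5% of domains with CTCF (92.8 to 97.3) and by 88.6% of those without (86.2 to 90.7). For C/EBPb the shares were 75.1% (70.2 to 79.4) and 73.9% (70.7 to 76.9), whose intervals overlapped.

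No summit of the 3 factors lay in 60 domains (5.53%, 4.32 to 7.05), against 16.2% of all SMARCA5 peaks. At 4000 to 8000 bp the share was 6.32% (5.80 to 6.88), and its interval overlaps that of the domains. They were as wide as the rest, with a median of 9566 bp against 9542 bp, and as enriched for SMARCA5, at 2.02 against 2.00. Their median -log10 q was lower, at 2.74 (quartiles 2.52 and 3.13) against 4.02 (3.45 and 4.70). The edge of a factor peak reached into 2 of them. The widest were chr5:90492796-90509204 with 16409 bp, chr2:44879696-44895333 with 15638 bp and chr19:29236043-29249932 with 13890 bp, with -log10 q values of 2.82, 2.55 and 2.86. Binding of the factors to these 60 after LPS was not measured here.

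Per unit of length, the domains were sparser in summits than narrower SMARCA5 peaks for every factor. CTCF had 0.0337 summits per kb (exact 95% Poisson interval 0.0304 to 0.0372), against 0.0935 in all peaks under 8000 bp and 0.0532 in peaks of 4000 to 8000 bp. The density of PU.1 was 0.168 per kb (0.161 to 0.176), against 0.307 and 0.245. C/EBPb had 0.103 per kb (0.0973 to 0.109), against 0.168 and 0.143. This amounts to 1 CTCF summit in 29.7 kb of domain, 1 PU.1 summit in 5.95 kb and 1 C/EBPb summit in 9.70 kb. Against peaks under 2000 bp CTCF density was 6.04 times lower, PU.1 density 2.64 times and C/EBPb density 2.12 times. A short peak that holds 1 summit has a high density by its length alone.

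**Figure D2:**
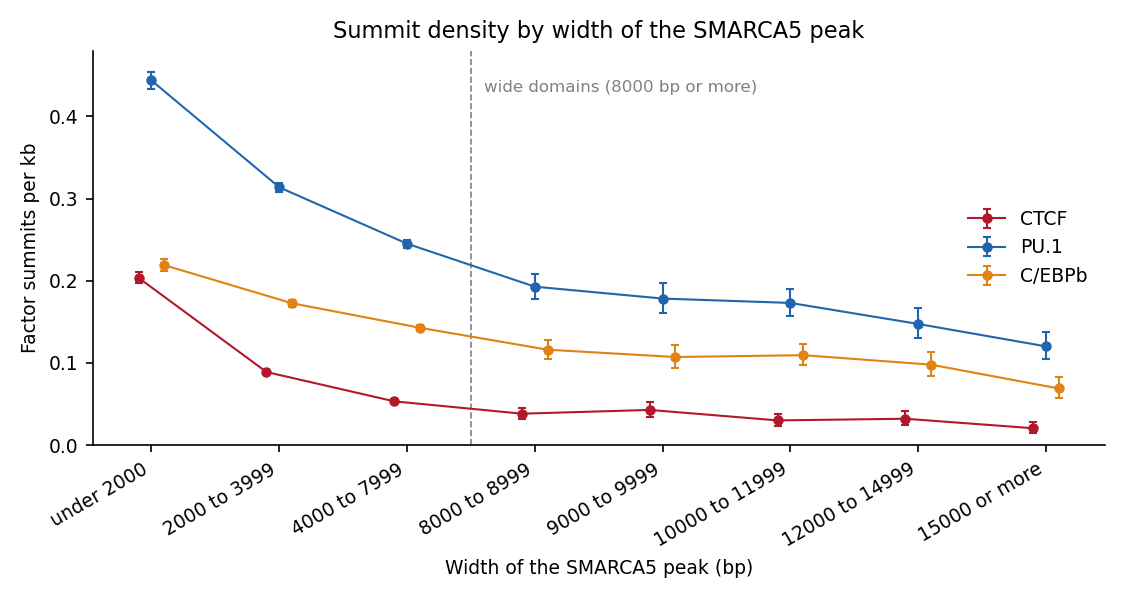
Summits per kb of SMARCA5 peak (y axis) for CTCF, PU.1 and C/EBPb in 8 classes of peak width (x axis), with exact 95% Poisson intervals as bars; the dashed line marks the 8000 bp limit. In domains of 15000 bp or more CTCF had 0.0205, PU.1 0.120 and C/EBPb 0.0689, the lowest of the 8 classes for each factor.

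Among the domains themselves the widest had the lowest densities. The fall was not at every step: CTCF was denser at 9000 to 10000 bp (0.0428 per kb) than at 8000 to 9000 bp, and at 12000 to 15000 bp (0.0320) than at 10000 to 12000 bp. C/EBPb was at 0.107 from 9000 to 10000 bp and 0.109 from 10000 to 12000 bp. From 8000 to 9000 bp (398 domains) to 15000 bp or more (89 domains), PU.1 went from 0.193 summits per kb (0.178 to 0.208) to 0.120 (0.104 to 0.138). C/EBPb went from 0.116 (0.105 to 0.128) to 0.0689 (0.0572 to 0.0823), and CTCF from 0.0382 (0.0319 to 0.0454) to 0.0205 (0.0144 to 0.0284). For each factor the intervals of these end classes did not overlap. The share of domains holding CTCF was 29.6% (25.4 to 34.3) and 31.5% (22.8 to 41.7) in these end classes, and between 26.2% and 36.9% in the 3 classes between them. In the end classes PU.1 was held by 90.2% (86.9 to 92.7) and 93.3% (86.1 to 96.9). The number of PU.1 summits per domain was 1.64 in the narrower and 2.37 in the wider of these classes.

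Inside the domains PU.1 and C/EBPb were spread more evenly from edge to edge than in narrower peaks. CTCF was close to even at 4000 to 8000 bp, and in the domains fewer of its summits lay towards the centre. Even placement would put 50% of summits in the inner 50% of a domain. For PU.1 the inner 50% held 1019 of 1949 summits, or 52.3% (50.1 to 54.5), and for C/EBPb 630 of 1196, or 52.7% (49.8 to 55.5). CTCF had 168 of 391 there, or 43.0% (38.2 to 47.9), an interval that lies below both others and below 50%. In peaks of 4000 to 8000 bp PU.1 had 60.7% of its summits there, C/EBPb 62.0% and CTCF 51.4%. Under 2000 bp they were 68.1%, 68.6% and 61.8%. Over these 3 classes each factor was less central in wider peaks, and CTCF was the least central in each. Within the domains the C/EBPb inner share was 60.2% (55.3 to 64.9) from 8000 to 9000 bp and 46.3% (37.6 to 55.1) at 15000 bp or more. For CTCF the inner share was between 41.1% and 42.6% in 4 of 5 width classes of domains, and 49.1% (36.4 to 61.9, 55 summits) from 12000 to 15000 bp, where PU.1 and C/EBPb were at 47.8% and 45.8%.

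**Figure D3:**
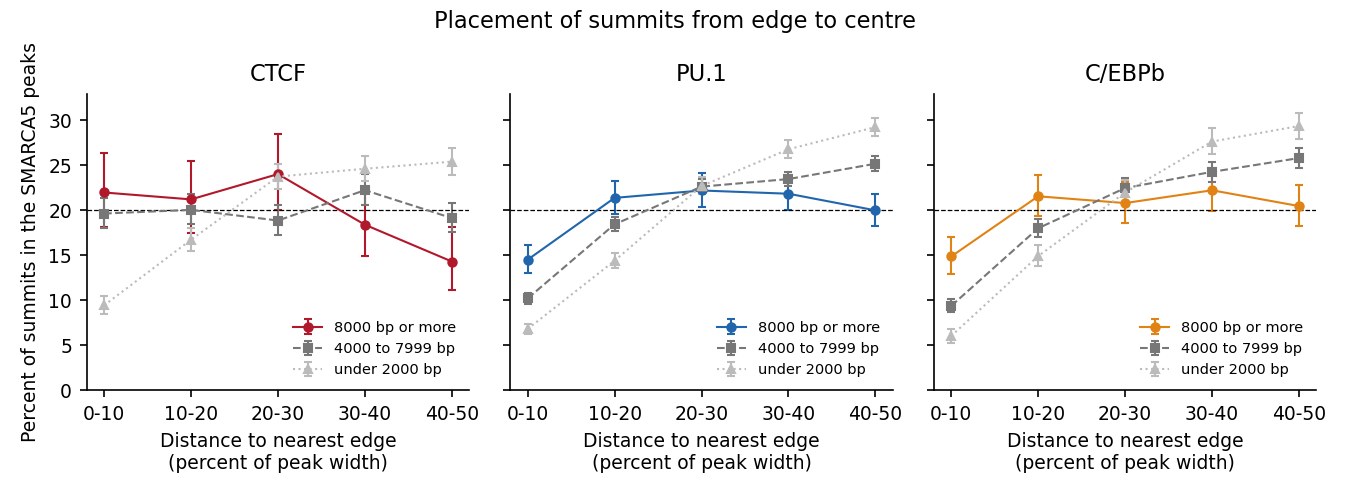
Percent of each factor's summits (y axis) by distance to the nearest edge as a percent of peak width (x axis; 40-50 is the centre), in domains of 8000 bp or more and in 2 narrower classes, with 95% Wilson intervals; the dashed line at 20% marks even placement. In the domains CTCF had 14.3% of its summits in the central step, PU.1 20.0% and C/EBPb 20.5%.

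The edges themselves differed between factors. The outermost step, within 10% of the width from an edge, held 22.0% of CTCF summits (18.2 to 26.4). Even placement would put 20% there, which lies inside that interval. PU.1 had 14.5% of its summits there (13.0 to 16.2) and C/EBPb 14.9% (13.0 to 17.0). Domains of 15000 bp or more did not share these low values. Their outermost step held 21.3% of PU.1 summits (16.3 to 27.3), 27.3% of C/EBPb summits (20.1 to 35.8) and 33.3% of CTCF summits (20.2 to 49.7). Over all domains the central step held 14.3% for CTCF (11.2 to 18.1), and 20.0% (18.3 to 21.8) and 20.5% (18.3 to 22.9) for the other 2. In bp, 20.7% of CTCF summits (17.0 to 25.0) lay within 1000 bp of an edge, where 18.7% of domain sequence lies. PU.1 had 13.3% there (11.9 to 14.9) and C/EBPb 13.7% (11.9 to 15.8), both below that share. The CTCF interval includes that share. At 15000 bp or more, 10.1% of sequence lies within 1000 bp of an edge. PU.1 had 9.48% there (6.22 to 14.2) and C/EBPb 13.2% (8.31 to 20.4), intervals that include that 10.1%. Over all domains CTCF summits lay a median of 2206 bp from the nearest edge, PU.1 summits 2658 bp and C/EBPb summits 2650 bp. Among the 253 domains with all 3 factors, CTCF had the summit nearest an edge in relative terms in 96 (37.9%, 32.2 to 44.1), while it made up 24.3% of their summits. In 1152 peaks of 4000 to 8000 bp with all 3, CTCF was outermost in 40.6% (37.8 to 43.5) and made up 28.4%. A factor's share of summits is not the outermost share that even placement would give, which was not computed. No preference for edges can be read from this contrast.

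Summit density changed sharply at the domain boundary, as it did at the edges of peaks of 4000 to 8000 bp. In the first 1000 bp inside an edge there were 0.0373 CTCF, 0.120 PU.1 and 0.0756 C/EBPb summits per kb. In the first 1000 bp outside, leaving out sequence of other SMARCA5 peaks, there were 0.00467 (0.00224 to 0.00859), 0.0126 (0.00831 to 0.0184) and 0.00794 (0.00463 to 0.0127). Outside density is low in part by construction, because a summit in any SMARCA5 peak is left out. It was 0.0489 for PU.1 (0.0383 to 0.0615) at 4000 to 5000 bp from the edge. PU.1 density inside went from 0.120 in the first 1000 bp (0.106 to 0.135) to 0.193 in the next (0.175 to 0.212), and was 0.185 at 3000 to 4000 bp. CTCF density was highest at 2000 to 3000 bp inside, at 0.0479 (0.0392 to 0.0581), and fell to 0.0226 (0.0167 to 0.0299) at 3000 to 4000 bp. Peaks of 4000 to 8000 bp had 0.0533 CTCF, 0.177 PU.1 and 0.0982 C/EBPb summits per kb in the first 1000 bp inside. In the first 1000 bp outside they had 0.00527, 0.0126 and 0.00774. Their PU.1 density also rose inwards, to 0.287 in the next 1000 bp.

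**Figure D4:**
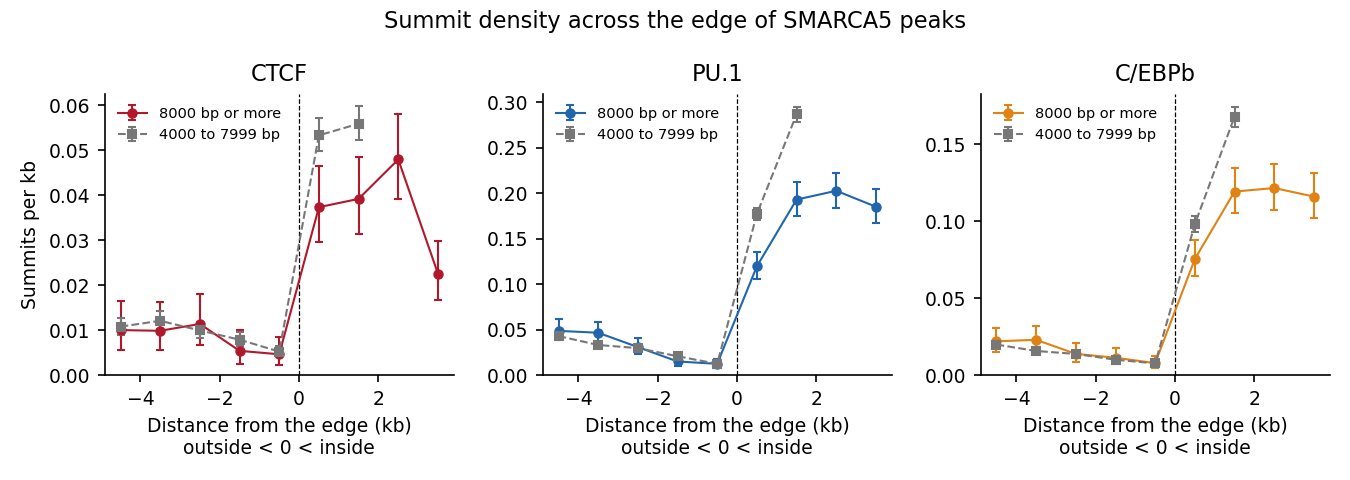
Summits per kb (y axis, a separate scale per factor) in bins of 1000 bp by distance from the edge of the SMARCA5 peak (x axis, kb; negative outside, positive inside), with exact 95% Poisson intervals, for domains of 8000 bp or more and peaks of 4000 to 8000 bp. Inside the domains PU.1 and C/EBPb stayed level from 1 kb inwards, while CTCF fell from 0.0479 at 2 to 3 kb to 0.0226 at 3 to 4 kb.

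Long parts of many domains had no summit of the 3 factors. In the 1025 domains with at least 1 summit, the longest stretch without one had a median of 5230 bp, or 51.2% of the width. Relative to width this was less than in peaks of 4000 to 8000 bp, where the median was 56.2%. It reached 5000 bp in 567 of them (55.3%) and 10000 bp in 51. The bare margin between an edge and the first summit had a median of 2372.5 bp (quartiles 1234 and 4383.25 bp). In 176 of these domains (17.2%) all summits lay outside the inner 50%, against 1366 of 7280 peaks of 4000 to 8000 bp (18.8%). Where a domain held 2 or more summits, these spanned a median of 48.0% of its width, against 30.9% in peaks of 4000 to 8000 bp. The median gap between neighbouring summits was 1177 bp against 644 bp, and 26.8% of gaps against 35.6% were of 200 bp or less. Domains held more summits (a mean of 3.26 against 2.34), and more summits span more of a peak. With 2 summits, all lay on 1 side of the centre in 68.9% of domains (62.3 to 74.7) and 72.0% of narrower peaks (70.3 to 73.7). With 3 it was 28.5% (23.0 to 34.7) and 31.5% (29.5 to 33.6). The intervals overlapped at 4 and at 5 or more too.

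PU.1 and C/EBPb shared sites within the domains. Among the 1196 C/EBPb summits, 465 had PU.1 in the same domain at 100 bp or less (38.9%, 36.2 to 41.7), and 59.4% within 500 bp. In peaks of 4000 to 8000 bp 45.3% did so within 100 bp (44.0 to 46.6). Seen from PU.1, 23.9% of its 1949 summits (22.0 to 25.8) had C/EBPb within 100 bp. CTCF summits were farther from both. PU.1 lay within 100 bp of 11.3% of CTCF summits (8.49 to 14.8), and C/EBPb within 100 bp of 6.14% (4.16 to 8.97). Where the domain also held PU.1, the median distance from CTCF to the nearest PU.1 summit was 1524.5 bp. The same distance from C/EBPb to PU.1 was 199 bp.

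In domains with 2 or more PU.1 or C/EBPb summits, the placement of the strongest, picked by its -log10 q, was set beside that of the others. The strongest PU.1 summit of 631 domains had a median fold enrichment of 13.6, against 6.90 for the other 964 summits, a difference that the choice itself favours. It lay in the inner 50% in 53.6% of cases (49.7 to 57.4), against 49.2% of the others (46.0 to 52.3), and these intervals overlapped. The strongest C/EBPb summit of 314 domains did so in 55.7% (50.2 to 61.1), against 47.9% (43.0 to 52.9), and these intervals overlapped too. Domains with 2 or more CTCF summits were few. In these 48 the outermost CTCF summits were 585 to 14800 bp apart, with a median of 5180 bp. They lay on opposite sides of the centre in 33, and in 7 one lay near each end, outside the inner 50%. The 289 domains with 1 CTCF summit had it in the inner 50% in 43.3% of cases (37.7 to 49.0).

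Factor peaks inside the domains had a lower fold enrichment than those in narrower SMARCA5 peaks, by the authors' values. The PU.1 median was 9.77 (quartiles 6.71 and 15.1) in the domains, 13.0 (8.65 and 19.3) in SMARCA5 peaks under 2000 bp and 11.0 (8.46 and 15.2) outside SMARCA5 peaks. CTCF had 10.7 (8.18 and 13.96), 13.6 (10.7 and 16.4) and 11.1 (9.04 and 13.7). C/EBPb had 10.3 (7.42 and 15.1), 12.0 (8.39 and 18.3) and 12.2 (9.27 and 16.3). In SMARCA5 peaks of 4000 to 8000 bp the medians were nearer those of the domains, at 10.8 for PU.1, 11.6 for CTCF and 10.9 for C/EBPb. The quartile ranges overlapped in each case. By -log10 q the order was another one for the macrophage factors. PU.1 had medians of 75.7 in the domains, 72.0 in peaks under 2000 bp and 36.1 outside, and C/EBPb had 56.7, 50.5 and 45.6. CTCF had 53.0, 74.3 and 44.6. The PU.1 median was not highest in the domains. It was 80.5 in SMARCA5 peaks of 4000 to 8000 bp and 77.0 in all those under 8000 bp. For C/EBPb these values were 55.5 and 51.8, both below that of the domains.

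The 10 widest domains showed the range of arrangements. The widest, chr11:119280788-119319027, held 2 CTCF and 3 PU.1 summits. Its first CTCF summit lay 80 bp from the left edge, the next 14.9 kb in, and a PU.1 summit 29.6 kb in. The domain of 38172 bp at chr19:36911977-36950148 held 7 summits, of which CTCF had 1 and the macrophage factors 3 each. At chr8:83084552-83122377, 37826 bp long, 6 PU.1 and 4 C/EBPb summits were found and no CTCF, and 8 of these 10 lay in the inner 50%. Its strongest site, 25.5 kb from the left edge, had a fold enrichment of 28.3 for PU.1 and, 25.7 kb from the edge, 30.7 for C/EBPb.

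In other wide domains the summits were gathered near an edge. The domain chr16:97334584-97371188, of 36605 bp, had 2 PU.1 summits and 1 C/EBPb summit within 2.68 kb of its left edge and 1 CTCF summit 1.13 kb from its right edge, with 32788 bp between them. At chr3:142198948-142231942 all 4 summits lay within 3.54 kb of the left edge and 29458 bp followed without one. In chr2:51014938-51041335 the first 22278 bp were bare and all 4 summits lay within 4.12 kb of the right edge. In chr2:164260859-164287088 the first 20133 bp were bare and 2 PU.1 and 3 C/EBPb summits followed, while chr11:21060942-21086182 held 1 C/EBPb summit in 25241 bp. In these 5 domains 0 summits lay in the inner 50%. By contrast, chr4:134953271-134984617 had 10 summits over 31347 bp, with no bare stretch above 5959 bp. The domain of rank 8, chr3:122383527-122409773, held 2 PU.1 and 2 C/EBPb summits.

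**Figure D5:**
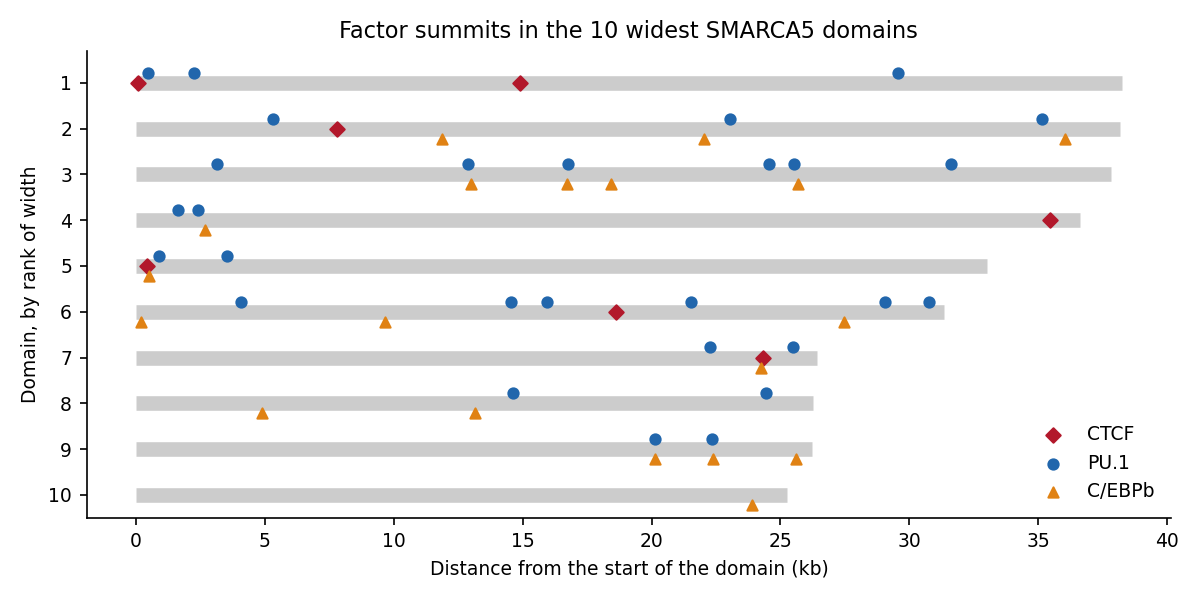
The 10 widest SMARCA5 domains as grey bars (y axis, by rank of width) drawn to scale from their left edge (x axis, kb), with the summits of CTCF (diamonds), PU.1 (circles) and C/EBPb (triangles). The domains of rank 4, 5, 7, 9 and 10 have 0 summits in their inner 50%, while rank 3 has 8 of its 10 there.

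The domains richest in summits were not all among the widest. The most, 11, were in chr16:23796474-23814496, where 3 of the 4 CTCF summits lay between 4.71 and 6.63 kb from the left edge. Its strongest PU.1 summit, with a fold enrichment of 23.5, was 2.40 kb from the right edge and had a C/EBPb summit beside it, 2.39 kb from that edge. With 10 summits in 10104 bp, chr6:97426625-97436728 had 0.990 summits per kb, against 0.305 over all domains. Of the 4 domains with 9 summits, chr11:68333616-68353369 was the widest, with 5 of PU.1 and 4 of C/EBPb. There were 4 domains with 3 CTCF summits, chr7:126292306-126305665 and chr1:170722793-170734475 among them. The most PU.1 summits, 6, were held by 5 domains, one of which was chr2:167181522-167195290, with 1 summit each of CTCF and C/EBPb besides.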

How the data were processed

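The data used are 1 deposited consensus list for each of 4 proteins: summits of narrow peaks are given for the 3 DNA-binding factors, and SMARCA5 has broad peaks without them. The submitters' processing notes name the build mm39 and MACS2 2.2.7.1, STAR 2.7.9a, deepTools 3.5.1 and Picard 2.27.4. The sources used here do not give what each tool did or how libraries were pooled. Each deposited peak has a score, a fold enrichment (read as a ratio over local background) and a -log10 q, which are the authors' values and were used only within a list. Depth per library is unknown.

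Summits (peak start plus offset) were assigned to SMARCA5 peaks with Python 3.11.15, NumPy 2.4.6, pandas 2.3.3 and SciPy 1.17.1, after a test on simulated data. Shares have 95% Wilson intervals and densities exact Poisson intervals. Both cover counting error only. The outside profile left out sequence in other SMARCA5 peaks. Regions named are the 10 widest domains, the leading ones by number of summits, the 3 widest without a summit and the 3 on each side of the limit. Alternatives changed the width limit, the peaks kept by fold enrichment, the rule for holding a factor, the chromosomes, the joining of peaks and the measure of placement. Members, classes and comparisons were chosen with earlier results of these data known. H3K27ac data, genes and genome sequence on mm39 were not used here.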

Additional observations from a re-analysis of the deposited data

How the results depend on the processing

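The 9 results were the share of domains holding each factor, the difference in density from narrower peaks, and the inner share of summits. Each was recomputed under 7 alternatives, and the inner shares under 1 more. Density in the domains stayed below that of narrower peaks in all 21 values. A value was counted as moved when it left the counting interval of the reported one, which 7 of 21 shares, 9 of 21 density differences and 9 of 24 inner shares did. With domains from 6000 bp (2967), 71.0% held C/EBPb, the density differences were -0.126 per kb for PU.1 and -0.0562 for C/EBPb, and the inner shares 55.5% and 57.4%. From 10000 bp (452 domains), 77.4% held C/EBPb, the differences were -0.151 and -0.0710, and the inner shares fell to 49.4% for PU.1 and 49.8% for C/EBPb. In the upper 50% of SMARCA5 peaks by fold enrichment (286 domains), 28.0% held CTCF and 69.6% C/EBPb, and the differences were -0.0731 for CTCF and -0.155 for PU.1. With the upper 50% of each factor's list, which has fewer summits by construction, 14.8% held CTCF, 61.9% PU.1 and 40.6% C/EBPb. The differences were then -0.0416, -0.0969 and -0.0388, and the inner share of C/EBPb was 57.6%. With SMARCA5 peaks joined over gaps of up to 1000 bp (1332 domains), the inner share of PU.1 was 49.8%. Measured as more than 1000 bp from both edges, where 81.3% of domain sequence lies, CTCF had 79.3%, PU.1 86.7% and C/EBPb 86.3%. Except where its construction is named, the cause was not tested. The CTCF inner share stayed below 50% in all 7 settings that kept its definition. The PU.1 and C/EBPb inner shares lay on both sides of 50%, so no direction can be given for them. No paired analysis was possible because no value belongs to a library.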

Other observations

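Domains lay close to other SMARCA5 peaks. The gap to the nearest SMARCA5 peak had a median of 2500 bp, against 4371 bp for peaks of 4000 to 8000 bp, 6055 bp for peaks of 2000 to 4000 bp and 4813 bp for peaks under 2000 bp. A neighbour within 1000 bp was found for 92 domains (8.48%), against 3.61% to 6.13% in the 3 narrower classes. One within 5000 bp was found for 67.2%, against 45.6% to 53.1%. Of the 1085 domains, 278 (25.6%) stood in 123 runs of 2 or more with gaps of up to 20000 bp, and 23 runs had 3 or more. The runs below were chosen after their values were seen. The run with the most domains, chr6:15724106-15821258, held 5 in 97153 bp, with 1 CTCF, 9 PU.1 and 5 C/EBPb summits over the span. At chr1:84036810-84114408, 4 domains covered 55.5% of 77599 bp, and the span held 3 PU.1 summits and 0 of CTCF or C/EBPb. On chr11:21039700-21111872, 4 domains covered 78.5% of 72173 bp, and they include the tenth widest.

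The share of SMARCA5 peaks that were this wide ranged from 1.84% to 3.97% over the 20 chromosomes. It was highest on chromosome 19, at 3.97% (48 of 1208 peaks, 95% Wilson interval 3.01 to 5.23), and on chromosome 6, at 3.87% (3.12 to 4.78). It was lowest on chromosome X, at 1.84% (14 of 761, 1.10 to 3.06), and on chromosome 17, at 1.94% (1.38 to 2.73). These are extremes named after the values were seen. The intervals of chromosomes 19 and X overlapped, while that of chromosome 17 lay below those of chromosomes 19 and 6.

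The deposited scores ended in 0.25 or 0.75 for 412 of the domains (38.0%), against 32.3% in peaks of 4000 to 8000 bp, 21.8% at 2000 to 4000 bp and 7.67% under 2000 bp. All other scores were whole or ended in 0.5. How such decimals arose is not given in the sources used here.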
